A study of Mus musculus with 6 samples.

Results

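The cholesterol and fatty acid synthesis genes described here are 33 of the 53465 genes in a table of ribosome footprint counts from mouse ID8 cells, chosen by symbol: the enzymes of the sterol pathway (19 genes), the enzymes that make, lengthen and desaturate fatty acids (8 genes), the SREBP regulators (4 genes) and a pair of sterol transport proteins (2 genes). All 33 symbols matched 1 Ensembl gene each in GENCODE M21. Ribosome profiling reads the short mRNA fragments protected by ribosomes, so a footprint count reflects both the amount of an mRNA and how densely ribosomes occupy it. ID8 is an ovarian cancer line whose parent cells were mouse ovarian surface epithelium. The series compared control cells (sgNC) with cells given a guide against Nat10 (sgNat10), an enzyme that acetylates cytidine in RNA, and the libraries are labelled WT (3) and KO (3). All 6 libraries were treated with cycloheximide before lysis, and their labels name no other drug. The sources used here do not say whether the sgNat10 cells were 1 clone or a pool, which site was cut, or whether replicates were separate cultures, and p-values therefore speak only of the spread among the 6 libraries, which may be technical. A footprint difference can come from mRNA level or from translation, and fewer cells of a type and less RNA per cell cannot be told apart in bulk lysates.

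Cholesterol is built from acetyl-CoA through mevalonate, isoprenoid diphosphates, squalene and lanosterol, while fatty acids are built from the same acetyl-CoA by carboxylation, repeated condensation, elongation and desaturation. The transcription factors SREBP-1 and SREBP-2, encoded by Srebf1 and Srebf2, switch on both sets of genes. They are held in the endoplasmic reticulum by SCAP and INSIG proteins when sterols are plentiful and are carried to the Golgi and cut free when sterols are scarce, so genes of the pathway are known to move together in many cell types.

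At promoters, SREBPs bind sterol elements next to CCAAT boxes, which bind the factor NF-Y, and GC boxes, which bind Sp1. RefSeq promoter windows (GRCm38.p6, 250 bases before to 50 bases after a start site) from 26 of the 33 genes were searched, as 33 windows. Neither sterol transport gene had a window in this search, so the shares given for members do not cover that list. The letters searched were TCACNCCAC for the sterol element, CCAAT for the CCAAT box and GGGCGG for the GC box, on both strands. The E-box, CACGTG, was searched in the same way. The first set of sequences holds the only sterol element found, that of Hmgcs1, and the CCAAT box nearest upstream of the start site in 5 other genes whose values are given further on; capitals mark the sterol element (TCACCCCAC) and the CCAAT boxes, which read ATTGG on the strand shown where they are inverted. The Hmgcs1 piece lies at chr13:119690167-119690230 (plus strand), with its sterol element beginning 137 bases before the start site.
Hmgcs1: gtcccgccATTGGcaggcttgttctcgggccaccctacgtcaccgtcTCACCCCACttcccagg
Lss: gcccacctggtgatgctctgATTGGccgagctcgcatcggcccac
Nsdhl: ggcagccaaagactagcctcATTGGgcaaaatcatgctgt
Cyp51: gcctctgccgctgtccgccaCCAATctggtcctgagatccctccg
Fasn: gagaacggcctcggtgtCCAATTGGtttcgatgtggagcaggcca
Srebf2: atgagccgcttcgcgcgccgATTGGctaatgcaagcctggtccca

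The other pieces lie at chr10:76531523-76531567 (Lss, plus), chrX:72918481-72918520 (Nsdhl, plus), chr5:4104702-4104746 (Cyp51, minus), chr11:120824582-120824626 (Fasn, minus) and chr15:82147114-82147158 (Srebf2, plus). In Fasn a box on each strand overlaps to form 1 run. CCAAT was in 23 of the 33 windows (69.7%), from 22 of 26 genes, against 37.4% of all 32851 promoter windows and 37.2% of the 8343 windows of tested genes. All 9 squalene to sterol genes with a window held it. The GC box was in 24 windows (72.7%), against 35.7% of all windows but 66.9% of those of tested genes, and the sterol element in 1 window, against 1.24% of all windows. The E-box was in 7 windows (21.2%), against 7.15% of all windows and 10.7% of those of tested genes. These are matches of letters and not measured binding sites.

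Footprints are short, so a second set of sequence bears on how far the counts can be assigned. The coding sequence of each member was divided into overlapping windows of 28 bases, and each window was looked up in the transcripts of all other genes. For 22 members no window was found elsewhere. The other 11 shared between 6.55% (Sc5d) and 98.4% (Fdps) of their windows with paralogs, pseudogenes or, for Fdps, also an overlapping gene model. Fdps, the farnesyl diphosphate synthase, shared windows with 8 other genes, most of them (84.6% of its windows) with Gm43738, a gene model on the same strand that covers 923 of its 1059 coding bases and had 0 counts. Acat2 shared 79.6% with its paralog Acat3, which had 0 counts, and Idi1 79.6%, Acaca 77.8%, Fdft1 52.8%, Ggps1 49.5% and Elovl6 49.0% with processed pseudogenes.

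The stearoyl-CoA desaturases Scd1 and Scd2 are neighbours on chromosome 19 and share 27.1% and 26.9% of their windows with each other. The longest identical run of their coding sequences, 147 bases, is shown because no footprint inside it can be assigned to either gene by its sequence. It covers coding bases 523 to 669 of Scd1 (exons 4 and 5, chr19:44401693-44401805 and chr19:44400341-44400374, minus strand) and 532 to 678 of Scd2 (exons 4 and 5, chr19:44299702-44299814 and chr19:44301212-44301245, plus strand). Capitals mark 1 window of 28 bases.
Scd1 and Scd2: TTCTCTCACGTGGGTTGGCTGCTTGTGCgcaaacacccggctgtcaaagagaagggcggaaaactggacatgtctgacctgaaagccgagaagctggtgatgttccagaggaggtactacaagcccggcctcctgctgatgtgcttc

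Total gene counts ran from 1687466 to 2148715 in the WT libraries and from 2234305 to 3126208 in the KO libraries. The number of genes per count value peaked again far above 1, at 15, 21 and 39 in WT and at 42, 46 and 60 in KO. A count divided by this modal count is called molecule equivalents. In this unit the libraries totalled 112498, 102320 and 46442 in WT and 60506, 48572 and 52103 in KO. The larger KO counts thus did not mean more molecule equivalents, and the modal count was higher in every KO library than in any WT library. Over the tested genes, libraries correlated at 0.571 to 0.705 within groups and at 0.543 to 0.630 between them (log CPM, across genes, which are not independent replicates). Nat10 had 168, 128 and 292 counts in WT and 315, 133 and 445 in KO (log2 fold change -0.074, SE 0.48), so directions below are those of the labels, and a loss of Nat10 footprints was not seen. The 6 epithelial and mesothelial markers summed to 5625 to 6143 CPM in WT and 4013 to 4578 CPM in KO, with at most 6 counts of Krt7; Krt18 (-1.74) and Krt19 (-0.92) were called lower and Msln (1.05) higher in KO by edgeR, and their part in the results below was not tested. Of the 6 leukocyte markers 2 were at 0 throughout and the sum was at most 14.5 CPM, and of the 3 adipocyte markers, a cell type rich in these lipid genes, 2 were at 0 and Fabp4 had 1 count in all. Endothelial and fibroblast markers summed to at most 5.46 CPM, and hepatocyte markers to at most 57.8 CPM, nearly all of it Alb.

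In the main edgeR fit no member was called different between the groups after adjustment over all genes. Fold changes are KO minus WT from edgeR's quasi-likelihood test on 8200 genes, and the threshold for a call was an adjusted p of 0.05 (Benjamini-Hochberg), which 0.402% of tested genes passed. Of the 33 members 32 passed the filter on low counts, 0 were called, and 6 had an unadjusted p under 0.05, all of them lower in KO (Fdft1, Lss, Nsdhl, Acly, Scd1 and Scd2), against 3.79% of tested genes that were lower at that level and 2.7% that were higher. DESeq2 called 1 member, Fdft1, where it called 2.53% of genes. In 25 of 32 tested members the fold change was negative, with a median of -0.34, while 51.0% of all tested genes were negative, with a median of -0.016. The count ran from 22 to 27 of 32 when single libraries were left out. Scaling by library totals instead of TMM, the median of all genes moved by 0.11 and 23 of 32 members were negative, against 45.1% of all genes.

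The members that passed a depth filter were all below 0. Of the 13 members that averaged at least 10 molecule equivalents, 13 had a negative fold change (median -0.34), against 59.0% of the 1179 tested genes of that depth (median -0.084). That average runs over both groups, and WT replicates 1 and 2 totalled the most molecule equivalents, so the filter favours genes high in WT. Fdft1 and Lss passed it only through WT, being under 10 on average in KO. Shares among these 13 members are therefore not independent of direction. In 7 members every KO library lay below every WT library and in 0 every KO library lay above, against 7.93% and 6.94% of tested genes. Of the 13 members of at least 10 molecule equivalents, 6 lay apart in that way, against 15.4% of tested genes of that depth. These 7 were Pmvk, Fdft1, Sqle, Lss, Msmo1, Acly and Scd1. WT replicate 2 gave the highest of the 6 levels for 11 members and WT replicate 3 for 10, while KO replicate 2 gave the lowest for 12 and KO replicate 3 for 9.

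**Figure D1:**
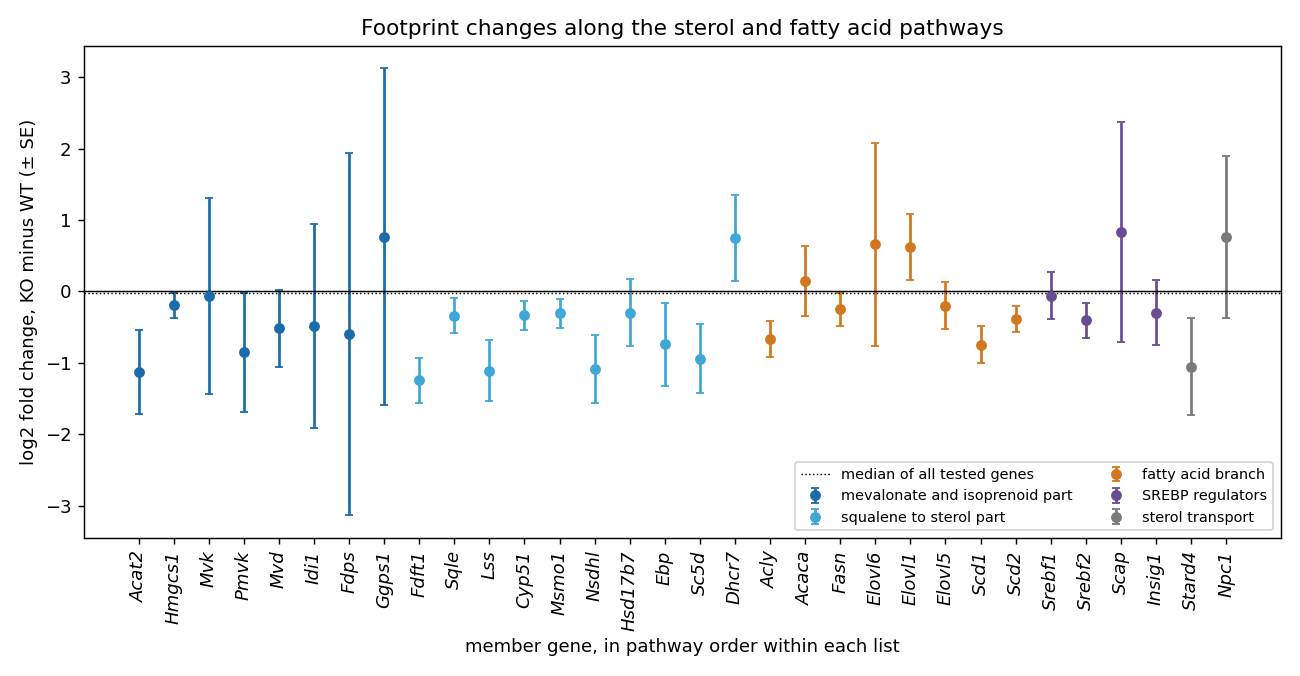
Log2 fold change (KO minus WT, y axis) with its standard error for the 32 tested members, in pathway order within each list, coloured by list; the dotted line is the median of all tested genes (-0.016). Most sterol enzymes lie between 0 and -1.25 with short bars only for abundant genes, and the widest bars belong to Fdps and Ggps1, which had few counts.

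The summed footprints of the sterol branch were 4191, 4477 and 4745 CPM in the WT libraries and 3670.2, 3162 and 3234 CPM in the KO libraries, so the groups did not overlap. CPM are counts scaled to a TMM-adjusted library size. The means were 4471 ± 277 and 3355 ± 275 CPM (SD, n = 3), a ratio of KO to WT of 0.751. Without Hmgcs1, the most abundant sterol enzyme, the ratio was 0.698. The fatty acid branch summed to 3524, 4543 and 3923 CPM in WT and to 3401, 2834 and 3130 CPM in KO, again without overlap but with a narrow gap between WT replicate 1 and KO replicate 1. Its ratio of KO to WT was 0.781, and without Scd2, which made up much of it, the groups overlapped (ratio 0.799). As a share of all raw counts the 33 genes held 0.829% to 0.927% in WT and 0.695% to 0.785% in KO. This measure is scaled by library totals, without the TMM factor. No p is given for these sums, since the genes were chosen with results of these data known.

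No separation between the branches was seen. The ratio of sterol to fatty acid footprints was 1.19, 0.986 and 1.21 in WT libraries and 1.08, 1.12 and 1.03 in KO libraries, so the ranges overlapped. By single genes the sterol branch had a median fold change of -0.50, with 16 of 18 tested enzymes negative, and the fatty acid branch a median of -0.23, with 5 of 8 negative. The difference of these medians was -0.27, with no test, and it turned to 0.056 on molecule equivalents, where 13 members could be tested. The SREBP regulators had a median of -0.18, with 3 of 4 negative, and summed to 722, 831 and 788 CPM in WT and 639.8, 605 and 723 CPM in KO, where WT replicate 1 and KO replicate 3 were level.

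**Figure D2:**
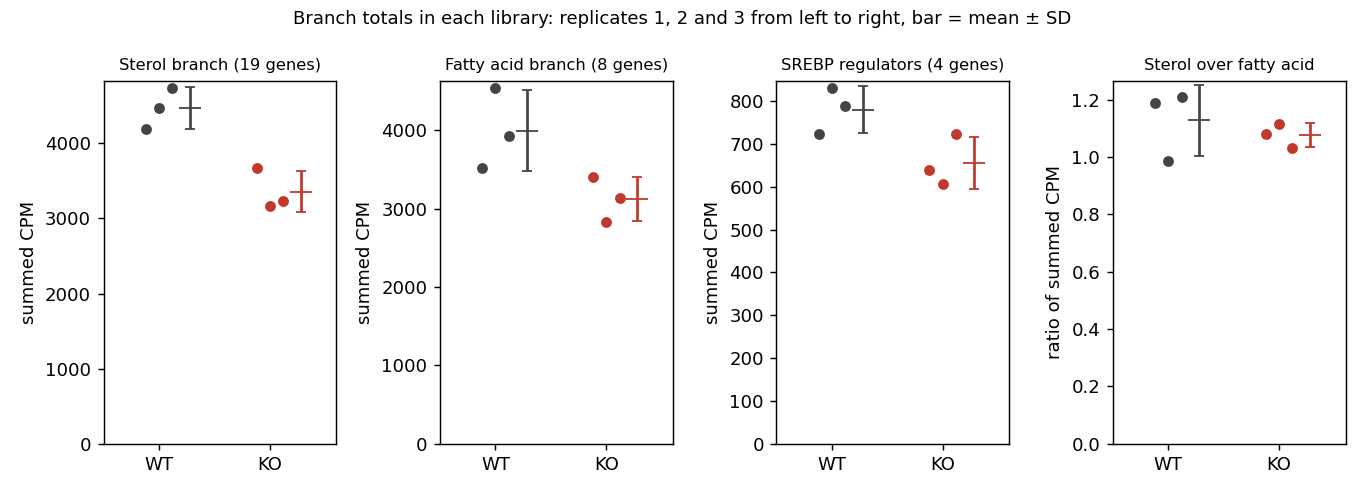
Summed CPM of the sterol branch, the fatty acid branch and the SREBP regulators, and the ratio of the first 2, in each library (points, replicates from left to right) with the mean and SD of each group; the axes start at 0. KO libraries lie below WT libraries for both branches, and the ratio panel shows overlapping groups, with means of 1.13 and 1.08.

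The mevalonate and isoprenoid enzymes, which act first in the sterol pathway, were measured with very unequal precision. Their summed level was 1495, 1738 and 1679 CPM in WT and 1475, 1112 and 1507 CPM in KO, and the groups overlapped. Hmgcs1, the HMG-CoA synthase (ENSMUSG00000093930), made up most of it with 1217, 1363 and 1414 CPM in WT and 1331, 976 and 1181 CPM in KO. Its groups overlapped, and its log2 fold change was -0.20 (SE 0.17, 95% interval -0.57 to 0.18), which spans 0. The acetyl-CoA acetyltransferase Acat2 had 45.6, 108 and 106 CPM in WT and 28.1, 31.7 and 58.6 CPM in KO (-1.13, SE 0.59). Its WT replicate 1 lay within the KO range. Pmvk, the phosphomevalonate kinase, had 41.3, 39.5 and 59.5 CPM in WT and 32.4, 16.7 and 28.5 CPM in KO (-0.85, SE 0.84), and Mvd, the mevalonate diphosphate decarboxylase, stood at -0.52 (SE 0.53).

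The other mevalonate and isoprenoid enzymes had libraries at 0 in at least 1 group. The WT counts of Mvk, the mevalonate kinase, were 99, 73 and 12, and its KO counts were 0, 56 and 241. Idi1, the isopentenyl diphosphate isomerase, gave 60, 143 and 10 counts in WT libraries and 31, 0 and 223 in KO libraries. Both were high in KO replicate 3 and at 0 in another KO library. Fdps gave 0, 95 and 0 counts in WT libraries and 0, 44 and 40 in KO libraries. For Ggps1, which makes the geranylgeranyl diphosphate used for protein prenylation, WT counts were 15, 22 and 0, and KO counts were 6, 29 and 63. Fdps, an enzyme on the main route to cholesterol, thus stood at only 14.9 CPM per coding kilobase in WT while the next enzyme, Fdft1, stood at 208 CPM per coding kilobase. Of the Fdps windows 98.4% were not unique, and 923 of its coding bases also lie in Gm43738. The sources used here do not say how the counting treated reads with several matches or reads over overlapping genes, and the part of either in its low level was not tested.

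For the enzymes from squalene to sterols the sums of the groups were apart. Their summed level was 2695, 2739 and 3066 CPM in WT and 2196, 2050.1 and 1727 CPM in KO, without overlap, and the ratio of KO to WT was 0.703. Of 10 tested enzymes 9 had a negative fold change.

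Fdft1, the squalene synthase that commits farnesyl diphosphate to sterols (ENSMUSG00000021273, chr14:63145150-63179578, minus strand), had the smallest p of all members. Its level was 202, 255 and 319.7 CPM in WT and 119, 107 and 101 CPM in KO. Every KO library was below every WT library by a wide gap, and the KO libraries lay close together. The means were 259 ± 59.0 and 109 ± 9.09 CPM (SD, n = 3), with a log2 fold change of -1.25 (SE 0.31, 95% interval -1.91 to -0.58). By edgeR the adjusted p over all genes was 0.144, with 0.170 to 0.601 without single libraries and 0.0026 to 0.219 under the other settings; it was called by DESeq2 (0.0026) and on molecule equivalents (0.039), where 11.4% of 968 genes were called. In 13 of 13 other fits its fold change was negative. Of its windows 52.8% also lie in the pseudogene Gm6781, which had between 1 and 7 counts in each library, and its last exons overlap Ctsb on the opposite strand by 774 exon bases, none of them coding bases of Fdft1. Ctsb itself, a lysosomal protease, stood at -0.12 (SE 0.22).

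Lss, the lanosterol synthase that closes the sterol rings (ENSMUSG00000033105, chr10:76531588-76557138, plus strand), had 262, 421 and 282 CPM in WT and 247, 144 and 56.8 CPM in KO. The groups did not overlap, but KO replicate 1 lay just below WT replicate 1 and the KO libraries differed several-fold among themselves. The log2 fold change was -1.11 (SE 0.43, 95% interval -2.02 to -0.20; edgeR adjusted p = 0.547). It was -0.72 without KO replicate 3 and -1.68 without KO replicate 1, and the unadjusted p stayed under 0.05 in 3 of 6 fits without single libraries. On molecule equivalents Lss was called (adjusted p = 0.049, with 0.049 to 0.618 over the settings other than single libraries), as were 2 of 13 members against 11.4% of all genes in that setting, shares that lie close together.

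Nsdhl, which removes the C4 carboxyl group of sterol intermediates (ENSMUSG00000031349, chrX:72918557-72958514, plus strand), had 191, 85.9 and 172 CPM in WT and 81.9, 94.2 and 35.1 CPM in KO. WT replicate 2 lay inside the KO range, so the groups overlapped. Its log2 fold change was -1.09 (SE 0.48; edgeR adjusted p = 0.692), with -0.77 without KO replicate 3 and an unadjusted p under 0.05 in 3 of 6 fits without single libraries. Sc5d, the C5 desaturase, had 135, 95.9 and 279 CPM in WT and 107, 115 and 43.1 CPM in KO. Its groups overlapped, and its log2 fold change of -0.94 (SE 0.48) was -0.39 without WT replicate 3 and -0.62 without KO replicate 3. Lss, Nsdhl and Sc5d were all lowest in KO replicate 3.

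The abundant middle enzymes had smaller fold changes and smaller standard errors than Fdft1, Lss and Nsdhl. Msmo1, the C4 methyl oxidase, had 609.9, 619 and 754 CPM in WT and 554, 458 and 588 CPM in KO, with a narrow gap between the groups (-0.31, SE 0.20). Sqle, the squalene epoxidase, had 361, 356 and 301 CPM in WT and 282, 285 and 236 CPM in KO, also without overlap (-0.34, SE 0.24). Cyp51, the lanosterol demethylase, had 563, 677 and 754 CPM in WT and 582, 545 and 453 CPM in KO (-0.34, SE 0.21), where KO replicate 1 lay above WT replicate 1. For these 3 genes the upper ends of the 95% intervals were 0.13, 0.18 and 0.11, so a small rise lies inside each interval, and the lower ends were -0.74, -0.87 and -0.78.

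The last steps were mixed. Ebp, the sterol isomerase, stood at -0.74 (SE 0.58), with 1 very low library, KO replicate 2 at 16.7 CPM. Hsd17b7, the C3 ketoreductase, stood at -0.30 (SE 0.47). Dhcr7, the final reductase of the pathway, went the other way, with 109, 26.5 and 39.3 CPM in WT and 60.1, 157 and 77.6 CPM in KO (0.75, SE 0.60). WT replicate 1 lay inside its KO range, and the fold change was 0.25 without KO replicate 2, 0.40 without WT replicate 2 and 1.58 without WT replicate 1. Tm7sf2, the C14 reductase, did not pass the filter: its WT counts were 7, 1 and 0, and its KO counts 13, 0 and 0.

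**Figure D3:**
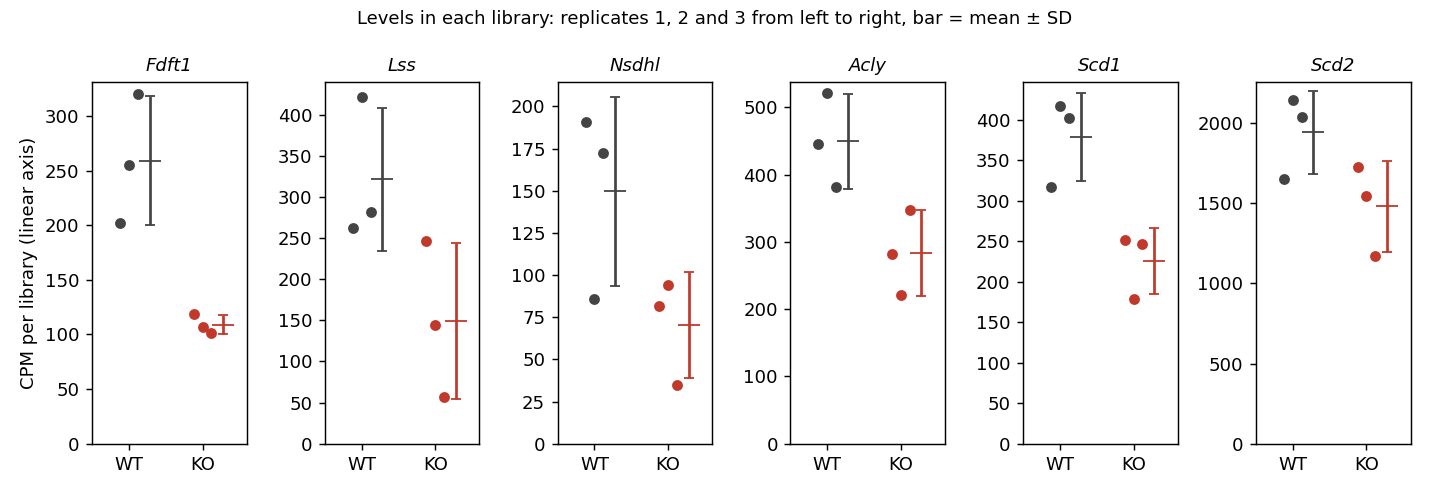
CPM in each library (points, replicates from left to right) with the mean and SD of each group, for the 6 members with an unadjusted edgeR p under 0.05; each panel has its own linear axis from 0. Groups are apart for Fdft1, Lss, Acly and Scd1 and overlap for Nsdhl and Scd2, and Fdft1 has the widest gap, from 119 to 202 CPM.

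In the fatty acid branch the first enzyme and the desaturases were the members with low unadjusted p. Acly, the ATP citrate lyase that supplies cytosolic acetyl-CoA to both branches (ENSMUSG00000020917, chr11:100476353-100528000, minus strand), had 446, 522 and 381 CPM in WT and 282, 221 and 348 CPM in KO. The groups did not overlap. The means were 449.6 ± 70.7 and 283 ± 63.7 CPM (SD, n = 3), with a log2 fold change of -0.67 (SE 0.25, 95% interval -1.20 to -0.13; edgeR adjusted p = 0.547). Fasn, the multienzyme synthase of palmitate, had 835, 928 and 629 CPM in WT and 701, 477 and 830.2 CPM in KO. Its groups overlapped in part, with KO replicate 2 below and WT replicates 1 and 2 above all libraries of the other group (-0.25, SE 0.23, 95% interval -0.75 to 0.24). Acaca, the acetyl-CoA carboxylase that makes malonyl-CoA, had 42.6, 109.9 and 169 CPM in WT and 108, 84.3 and 164 CPM in KO (0.14, SE 0.49), with the spread within WT larger than the difference between groups.

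The desaturases put the first double bond into saturated fatty acids. Scd1 (ENSMUSG00000037071, chr19:44394455-44407879, minus strand) had 316, 417 and 402 CPM in WT and 251, 179 and 246 CPM in KO, and the groups did not overlap. The log2 fold change was -0.75 (SE 0.26, 95% interval -1.30 to -0.19; edgeR adjusted p = 0.479), and its unadjusted p was under 0.05 in 6 of 6 fits without single libraries. Scd2 (ENSMUSG00000025203, chr19:44293674-44306864, plus strand), the member with the most footprints per coding kilobase, had 1650.2, 2144 and 2036 CPM in WT and 1727, 1546 and 1171 CPM in KO. KO replicate 1 lay above WT replicate 1, and the log2 fold change was -0.39 (SE 0.18, 95% interval -0.78 to -0.0063; edgeR adjusted p = 0.746). Scd1 made up 16.1%, 16.3% and 16.5% of the counts of both genes in WT and 12.7%, 10.4% and 17.4% in KO, so the share was nearly constant in WT and the KO libraries lay on both sides of it. The other paralogs were at or near 0, with 4 counts of Scd3 over all libraries and 0 of Scd4.

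The elongases gave no common direction. Elovl5, which lengthens polyunsaturated chains, had 152, 307 and 209 CPM in WT and 146, 225 and 209.7 CPM in KO (-0.20, SE 0.33). Elovl1, which makes very long saturated chains, had 60.8, 87.9 and 79.2 CPM in WT and 176, 103 and 71.7 CPM in KO (0.62, SE 0.46). KO replicate 3 was inside the WT range, and the fold change was 0.20 without KO replicate 1. Elovl6, which lengthens palmitate to stearate, gave 35, 51 and 29 counts in WT libraries and 28, 1 and 286 in KO libraries, so its positive fold change (0.66, SE 1.42) rested on KO replicate 3 and was -1.89 without it.

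The SREBP regulators were not called either. Srebf2, whose product drives sterol genes, had 311, 521 and 459.6 CPM in WT and 364, 308 and 303 CPM in KO, with KO replicate 1 inside the WT range (-0.41, SE 0.25, 95% interval -0.94 to 0.13). Srebf1, whose main isoform in liver drives fatty acid genes, had 275, 231 and 171 CPM in WT and 172, 159.7 and 318 CPM in KO (-0.060, SE 0.33). KO replicate 3 was its highest library and the other KO libraries were at the low end of WT, and the sign turned under library totals (0.048) and without KO replicate 1, KO replicate 2 or WT replicate 1. Insig1, the retention protein that is itself a sterol-regulated gene, had 127, 68.0 and 135 CPM in WT and 93.2, 118 and 56.5 CPM in KO (-0.30, SE 0.45). Scap, the escort of SREBPs, had 15, 21 and 39 counts in WT and 26, 45 and 147 in KO and averaged 1.17 molecule equivalents (0.83, SE 1.54). Of the transport proteins, Stard4, which carries cholesterol through the cytosol, stood at -1.05 (SE 0.68) and Npc1, which exports cholesterol from lysosomes, at 0.76 (SE 1.13).

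Levels between genes were compared per coding length. In WT the order began with Scd2 at 1809.6 CPM per coding kilobase, then Hmgcs1 at 853, Msmo1 at 752, Cyp51 at 441 and Scd1 at 355. In KO the first 4 were the same, at 1379, 745, 607 and 349 CPM per coding kilobase, followed by Elovl5 at 216 and Scd1 at 212. Fasn, with the longest coding sequence (7512 bases), had the third-highest raw level of the members but only 106 CPM per coding kilobase. At the other end stood Ggps1 at 7.45, Npc1 at 6.32, Scap at 3.67 and Tm7sf2 at 1.26 CPM per coding kilobase. Of the 7 tested members with the lowest WT levels per coding kilobase, 4 (Fdps, Acaca, Elovl6 and Ggps1) shared between 49.0% and 98.4% of their windows with other genes, while Mvk, Npc1 and Scap shared 0.

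**Figure D4:**
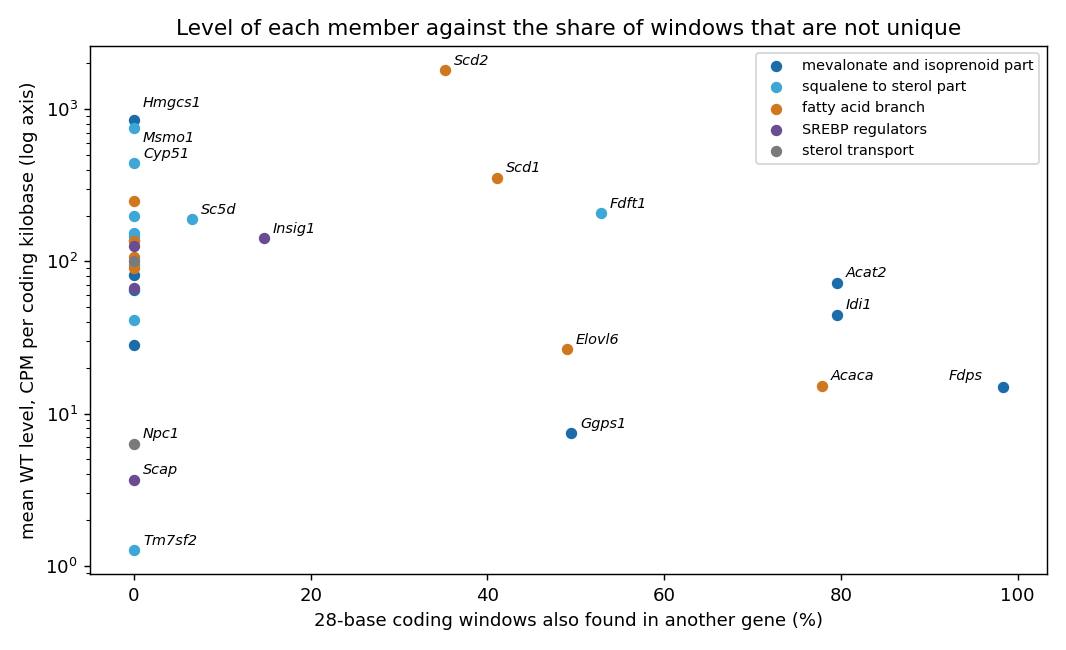
Mean WT level per coding kilobase (y axis, log scale) against the percentage of 28-base coding windows that also occur in another gene (x axis) for all 33 members, coloured by list. Scd2 and Scd1 are abundant despite 35.2% and 41.0% shared windows, Fdps sits at the far right at 14.9 CPM per coding kilobase, and the 22 members with unique windows run from 1.26 (Tm7sf2) to 853 (Hmgcs1) CPM per coding kilobase.

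Other genes of the pathway were taken from a companion list of 63 genes, of which 46 were tested and 12 had no count in any library. By edgeR 0 were called, with 4 lower and 1 higher at an unadjusted p under 0.05. Of 46 tested genes 28 had a negative fold change (median -0.19). By part of the list, 17 of 22 tested genes of fatty acid and lipid assembly were negative (median -0.47), against 4 of 9 of the sterol and isoprenoid genes (median 0.10) and 7 of 15 of the regulators and transporters (median 0.11); the difference between these shares was not tested.

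Acsl4, which activates arachidonic and related acids as CoA esters, had 1006, 913 and 791 CPM in WT and 556, 661 and 601 CPM in KO. The groups did not overlap (-0.58, SE 0.19; edgeR adjusted p = 0.425, and 0.044 by DESeq2). Me1, the malic enzyme that supplies NADPH for lipid synthesis, had 677, 639.6 and 609 CPM in WT and 543, 323 and 474 CPM in KO, also without overlap (-0.52, SE 0.23). Acss2, which makes acetyl-CoA from acetate, had 18.2, 74.0 and 113 CPM in WT and 18.3, 14.1 and 12.4 CPM in KO, with WT replicate 1 at the KO level (-2.19, SE 0.85). Npc2, the lysosomal partner of Npc1, went the other way, with 147, 133 and 174 CPM in WT and 265, 402 and 179 CPM in KO (0.90, SE 0.33; edgeR adjusted p = 0.531, and 0.048 on molecule equivalents), and KO replicate 3 lay just above the WT range. Without KO replicate 2 the fold change was 0.56.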

How the data were processed

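Per the labels' protocols, the authors treated cells with cycloheximide (100 µg/mL, 2 minutes), digested lysates with RNase I, kept reads of 25 to 34 nt, discarded rRNA and tRNA reads (Bowtie) and aligned what was left with HISAT2 (GRCm38 genome) and Bowtie (transcriptome). Further tools in the submitters' processing notes are cutadapt, featureCounts and DESeq2, with no version. The sources used here do not give the annotation, strand setting or treatment of multiple matches and duplicates. The authors deposited whole-number counts per Ensembl gene, 1 column per library, not normalized; 53360 of 53465 identifiers matched GENCODE M21.

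The test was edgeR 4.0.16 (R 4.3.3; robust quasi-likelihood, TMM, filterByExpr by group), fitted on the whole table. It was also run on simulated counts, but the share of known changes that it recovered is not given here. DESeq2 was 1.42.0. Fold changes are log2, KO minus WT, and 95% intervals include the spread between libraries. The modal count was the peak of the smoothed histogram (bandwidth 3, counts from 8 to 150). Coding lengths and windows used the longest coding transcript in GENCODE M21. Tables and plots used Python 3.11.15, pandas 2.3.3, numpy 2.4.6 and matplotlib 3.10.9.

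The members, lists and tests were chosen with earlier results of these data known. Values in every library are given for members with an unadjusted p under 0.05, the most abundant of each branch, the regulators and further members where the text turns on them, the last chosen after their values were seen; companion genes are the 4 with the smallest p. Alternatives were DESeq2, DESeq2's size factors or library totals in edgeR, no filter, 50 counts in 3 libraries, molecule equivalents, a replicate block, and each library left out in turn. No molecular identifiers are described, so repeated copies of a fragment may be counted.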

Additional observations from a re-analysis of the deposited data

How the results depend on the processing

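The sterol branch median stayed negative in all 13 alternatives, between -0.71 and -0.27, and the fatty acid branch median between -0.35 and -0.014, the latter without WT replicate 2. The number of called genes (33) was 235 by DESeq2, 110 on molecule equivalents and 91 with no count filter, and 6 to 29 without single libraries; called members numbered 0, except 1 by DESeq2 and 2 on molecule equivalents (Fdft1 and Lss), where 968 genes and 13 members passed the filter and 11.4% of genes were called, a share close to that of the members. Nat10 turned to 0.026 with library totals and ran from -0.35 to 0.35 without single libraries. Among members, library totals turned Mvk to 0.044 and Srebf1 to 0.048. The replicate block turned Fdps to 1.62 and Elovl6 to -1.09. Without single libraries the ranges were -1.53 to 0.60 for Mvk, -2.63 to 0.36 for Idi1, -1.31 to 7.59 for Fdps (WT at 0 in both libraries left, so no size is meant), -0.23 to 0.64 for Acaca, -1.89 to 1.25 for Elovl6, -0.41 to 0.10 for Elovl5 and -0.45 to 0.13 for Srebf1; other members kept their sign. The cause of these turns was not tested. Libraries with the same replicate number did not deviate together (correlations -0.017, -0.0030 and -0.0070), so the number was not taken as a pairing; with it as a block 38 genes and 0 members were called, and the sterol branch median was -0.71. Depth limits the members with few molecule equivalents most: the SE was 2.53 for Fdps (1.02) and 1.54 for Scap (1.17), against 0.18 for Scd2 (120.4).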

Other observations

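The coding sequences of the members were somewhat rich in codons that end in C, the wobble position. The median over the 33 members was 34.1% of codons, against 28.7% over the 8087 tested genes with a coding sequence, and 38.7% over the 8 fatty acid genes, with Scd1 at 46.2% and Idi1 lowest at 19.4%. Overall GC content did not show the same shift, at 51.4% for the members and 52.1% for tested genes. No test was made of these shares.

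Many members act in membranes of the endoplasmic reticulum. The 20 tested members with membrane-bound products had a median log2 fold change of -0.32, with 15 negative, and the 12 soluble or cytosolic ones a median of -0.50, with 10 negative. The grouping was made after the values were seen and was not tested.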
